A study of Mus musculus with 12 samples.

Results

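The genes of the smooth muscle contractile apparatus were followed through the hearts of a mouse model of myotonic dystrophy type 1 (DM1). They were 10 genes chosen by symbol, namely Acta2, Actg2, Tagln, Cnn1, Myh11, Smtn, Mylk, Lmod1, Myocd and Synpo2. All 10 had a row among the 51826 of the count table, and all 10 passed the filter on low counts in every comparison. The 12 poly(A) RNA-Seq libraries came from the atria and the ventricles of 6 FvB female mice aged 10 weeks. CUG960 mice (V119, V120 and V123) carried the TREDT960I transgene, which encodes 960 interrupted CUG repeats within the end of human DMPK, together with MHCrtTA. MHCrtTA controls (V327, V333 and V334) carried only the hemizygous transactivator. Both genotypes ate doxycycline (dox) chow from postnatal day 1, so the drug and the transactivator were shared by all groups. The transactivator is driven by the α myosin heavy chain promoter, which is active in cardiomyocytes and not in smooth muscle. Each library held between 116127966 and 160676189 counts, and 1 CPM, the unit of the normalized read counts (by library sizes scaled with TMM over all 12 libraries), stood for 105 to 174 counts.

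Smooth muscle contracts when calcium and calmodulin switch on myosin light chain kinase, which phosphorylates the light chains of smooth muscle myosin and lets it pull on α and γ actin filaments. Calponin, transgelin, smoothelin and leiomodin bind these filaments, and myocardin, a partner of serum response factor (SRF), switches on most of the genes at CArG boxes. In the heart the smooth muscle lies mainly in the walls of coronary vessels and of the great vessels at the base, while myocardin and synaptopodin 2 are also made by cardiomyocytes and α smooth muscle actin by activated fibroblasts. In whole tissue, fewer cells of a type and less RNA per cell cannot be told apart.

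The libraries matched their chamber labels by cardiomyocyte markers, but the ventricular libraries differed in how much atrial transcript they held. Nppa, the atrial natriuretic peptide, was between 11400 and 16580 CPM in the atria and between 48.6 and 224 CPM in the ventricles. The atrial light chain Myl7 was at 8.02, 4.98 and 19.3 CPM in the control ventricles of V327, V333 and V334 and at 0.192, 0.304 and 55.9 CPM in the ventricles of V119, V120 and V123. V119 and V120 were thus below all controls and V123 above them, for Myl4 and Sln as well. The ventricular calls are therefore also given without each of these mice, and in full without V123, the highest. Among the atria, the ventricular light chain Myl2 was highest in control V327, at 33.5 CPM, against 8.82 to 11.7 CPM in the other atria. The lung and airway markers summed to at most 1.65 CPM in any library.

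Per kilobase of exon, Acta2 was the most abundant of the 10 genes in control hearts, at 76.2 ± 19.8 CPM per kb in atria (mean ± SD, n = 3) and 54.8 ± 8.04 in ventricles. Acta2 encodes α smooth muscle actin and lies on chromosome 19 (34241090 to 34255590, minus strand, GRCm38). Smtn, which encodes smoothelin, came next in both chambers at 36.4 ± 1.94 and 33.8 ± 2.81 CPM per kb, without overlap with its neighbours in the order. In control atria the order continued with Cnn1 (13 CPM per kb), Synpo2 (11.6) and Tagln (11.3), whose ranges overlapped, and then Myocd (6.96), Myh11 (1.25), Mylk (1.08), Lmod1 (0.439) and Actg2 (0.101). Of these, Myh11 and Mylk overlapped as well. In control ventricles the order was Tagln (19.7 CPM per kb), Synpo2 (11.7), Myh11 (7.56), Myocd (4.02), Mylk (2.83), Lmod1 (1.29), Cnn1 (0.978) and Actg2 (0.565), and only the neighbours Lmod1 and Cnn1, and Cnn1 and Actg2, overlapped. Myh11, the smooth muscle myosin, was thus at rank 7 in atria and rank 5 in ventricles, and Cnn1, calponin 1, at rank 3 and rank 9.

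The promoter of Acta2 is shown because Acta2 is a well-known SRF target and the most abundant of the family. It covers chr19:34255324-34255623 on the minus strand (RefSeq, GRCm38.p6), 250 bases before to 50 after the start. A CArG box is a run of 10 bases that opens with CC, closes with GG and has 6 A or T between, and both strands were searched. Capitals mark 2 near matches with 1 G or C among the inner bases, which begin 84 and 34 bases before the start. The promoter of Lmod1 (chr1:135324563-135324862, plus strand) is shown beside it as that of a member with no match in the same window.
Acta2: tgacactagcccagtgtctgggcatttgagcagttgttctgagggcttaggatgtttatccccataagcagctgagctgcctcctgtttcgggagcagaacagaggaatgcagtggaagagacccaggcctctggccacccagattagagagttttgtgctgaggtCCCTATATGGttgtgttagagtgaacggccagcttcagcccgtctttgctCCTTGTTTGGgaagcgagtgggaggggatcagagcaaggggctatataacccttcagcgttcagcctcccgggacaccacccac
Lmod1: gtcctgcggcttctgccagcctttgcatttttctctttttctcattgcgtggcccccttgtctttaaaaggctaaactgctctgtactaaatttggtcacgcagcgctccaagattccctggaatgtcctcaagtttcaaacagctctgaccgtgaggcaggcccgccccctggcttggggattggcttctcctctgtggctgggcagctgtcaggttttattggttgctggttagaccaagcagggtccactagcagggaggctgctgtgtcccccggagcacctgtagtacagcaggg
No exact box was in either window. Promoter entries were matched for 6 of the 10 members (Acta2, Cnn1, Smtn, Mylk, Lmod1 and Synpo2), and only that of Acta2 held a near match. Among all 32851 promoters of this length, 1.63% held an exact box and 9.98% held an exact or near one. These matches are letters in a window and no measurement of binding.

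To set the baseline, atria were compared with ventricles in the control hearts. Of the 10 genes, 2 were higher in atria and 5 were higher in ventricles past the threshold, an adjusted P value under 0.05 and a change of at least 1.5-fold in edgeR's quasi-likelihood test. The chambers differ widely, and 34.9% of the 17451 genes tested passed the same threshold, 18.3% higher in atria and 16.6% higher in ventricles. The chambers did not overlap in 6 of the 10 genes, where 64.6% of all genes tested did not overlap. Cnn1, which encodes calponin 1 (chromosome 9, 22099216 to 22109630), was at 44.9, 27.1 and 35 CPM in the atria of V327, V333 and V334 and at 3.43, 1.6 and 3 CPM in their ventricles. The atrial level was 13.3-fold higher, a log2 difference of 3.73 ± 0.29 (SE; adjusted P = 1.6e-05). Myocd, which encodes myocardin (chromosome 11, 65176561 to 65269989), was also higher in atria, at 39.6, 47.7 and 46.8 CPM against 23, 22 and 32.5 CPM in ventricles (log2 difference 0.79 ± 0.15, adjusted P = 0.0024). The chambers did not overlap for either gene.

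The motor and its kinase had the opposite pattern. Myh11, the smooth muscle myosin heavy chain (chromosome 16, 14194535 to 14291372), was at 12.4, 6.11 and 9.99 CPM in control atria and at 64.8, 40.4 and 67 CPM in control ventricles, 6.07-fold higher in the latter (log2 difference of atria over ventricles −2.60 ± 0.28, adjusted P = 9.1e-05). Actg2, γ smooth muscle actin and the least abundant member (chromosome 6, 83512905 to 83536265), differed by −2.49 ± 0.32 (adjusted P = 0.00025), from 0.157 ± 0.0424 CPM in atria to 0.88 ± 0.21 CPM in ventricles. Mylk, myosin light chain kinase (chromosome 16, 34745210 to 35002420), differed by −1.40 ± 0.16 (adjusted P = 0.00014). Lmod1, leiomodin 1, which nucleates actin filaments (chromosome 1, 135324807 to 135368065), differed by −1.56 ± 0.25 (adjusted P = 0.001). In these 4 genes every ventricle was above every atrium. Tagln, transgelin, which bundles actin filaments (chromosome 9, 45929619 to 45936058), differed by −0.81 ± 0.25 (adjusted P = 0.024), with 1 control atrium of 32.3 CPM above the lowest ventricle of 30.8 CPM. Without V334 Tagln did not pass (log2 difference −0.66, adjusted P = 0.098).

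Acta2, Smtn and Synpo2 did not pass the threshold between the chambers. Acta2 was 1.39-fold higher in atria (log2 difference 0.47 ± 0.18, adjusted P = 0.0496), which is under the fold change limit. Smtn (chromosome 11, 3517523 to 3540612) differed by 0.10 (95% interval −0.05 to 0.26) and Synpo2, an actin-bundling protein of the dense body and the Z-disc (chromosome 3, 123076519 to 123236149), by −0.02 (−0.16 to 0.13).

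**Figure D1:**
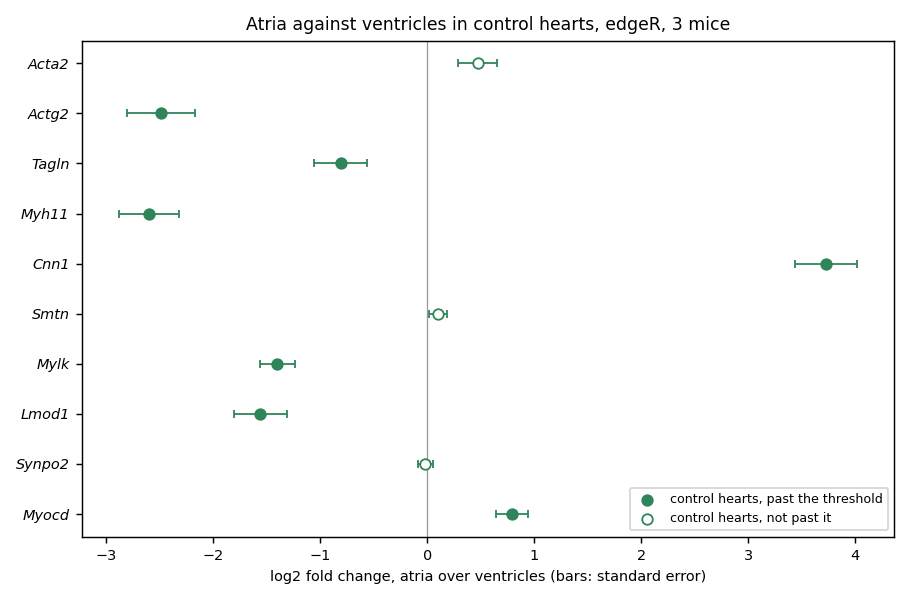
Log2 fold change of atria over ventricles in control hearts for the 10 genes, with standard errors (x axis), from edgeR on 3 mice. Filled points passed the threshold; Cnn1 lies farthest to the right at 3.73 and Myh11 farthest to the left at −2.60.

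CUG960 was then compared with control in atria, to ask which of the genes changed with the repeat RNA. Only Tagln passed the threshold, and it rose. Tagln was at 32.3, 17.1 and 18 CPM in the atria of V327, V333 and V334 and at 48.5, 34.4 and 73.2 CPM in those of V119, V120 and V123. All CUG960 atria were above all control atria, although the lowest of them was close to the highest control. The mean rose from 22.5 ± 8.55 to 52 ± 19.6 CPM (SD, n = 3), a log2 fold change of 1.21 ± 0.31 (adjusted P = 0.036). In all, 5.49% of 17650 genes passed, 3.37% upward and 2.12% downward. The groups did not overlap for 3 of the 10 genes, Tagln, Actg2 and Smtn, where 35.7% of all genes tested did not overlap. Leaving out V119, V123, V333 or V334 ended the call of Tagln (adjusted P = 0.091, 0.086, 0.11 and 0.095), with log2 fold changes no lower than 0.88.

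The other filament genes of the atria did not pass. Acta2 was at 217, 149 and 136 CPM in controls and at 195, 150 and 283 CPM in CUG960 atria, which overlapped (log2 fold change 0.33 ± 0.24, adjusted P = 0.41). V123 held the highest atrial level of Acta2, Tagln, Cnn1 and Myh11 among the CUG960 atria, and V327 the highest of the same genes among the control atria. Cnn1 was at 44.9, 27.1 and 35 CPM in controls and at 19.3, 16.6 and 40.7 CPM in CUG960 atria (log2 fold change −0.48 ± 0.32, adjusted P = 0.36). V119 and V120 were below all controls and V123 was among them, and without V123 the change was −0.99 with an adjusted P of 0.024. Actg2 was at 0.19, 0.109 and 0.172 CPM in controls and at 0.23, 0.257 and 0.265 CPM in CUG960 atria, which did not overlap but rested on 19 to 40 counts (log2 fold change 0.68 ± 0.30, adjusted P = 0.18).

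Smtn was lower in all CUG960 atria, at 132, 129 and 108 CPM against 167, 161 and 150 CPM. Its adjusted P of 0.024 was under 0.05, but the 1.3-fold change was under the fold limit (log2 fold change −0.37 ± 0.09). Without V120, V327 or V333 the adjusted P was 0.0505, 0.064 and 0.076. For the motor, the kinase, leiomodin, myocardin and synaptopodin 2 the groups overlapped. Their log2 fold changes were 0.04 ± 0.22 for Myh11 (adjusted P = 0.94), −0.32 ± 0.13 for Mylk (0.14), −0.17 ± 0.25 for Lmod1 (0.68), 0.11 ± 0.09 for Myocd (0.45) and 0.11 ± 0.10 for Synpo2 (0.48). The 95% interval for Myh11 ran from −0.40 to 0.48. The median log2 fold change over the 10 genes was 0.07, beside −0.01 over all genes tested.

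In ventricles, the motor, its kinase, transgelin and leiomodin fell and myocardin rose in CUG960 +dox mice. That made 4 genes down and 1 up of the 10, where 4.75% of 16909 genes passed the threshold, 1.76% downward and 3% upward. The median log2 fold change over the 10 was −0.58, beside −0.01 over all genes tested. In 7 of the 10 the groups did not overlap, 5 lower and 2 higher in CUG960, where 31.2% of all genes tested did not overlap.

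Myh11 was at 64.8, 40.4 and 67 CPM in the ventricles of V327, V333 and V334 and at 39.5, 35.6 and 34.3 CPM in those of V119, V120 and V123. Control V333 was only just above the highest CUG960 library. The level fell 1.57-fold, from 57.4 ± 14.8 to 36.4 ± 2.71 CPM (log2 fold change −0.65 ± 0.17, adjusted P = 0.039). Mylk, the kinase that switches this myosin on, was at 35.1, 23.8 and 36.7 CPM in controls and at 21.5, 18.4 and 18.4 CPM in CUG960 ventricles, again with V333 the lowest control. It fell by 0.71 on the log2 scale (SE 0.15, adjusted P = 0.021).

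Lmod1 was at 5.62, 3.77 and 5.86 CPM in control ventricles and at 3, 3.5 and 2.58 CPM in CUG960 ventricles. All CUG960 libraries were below the lowest control, V333 (log2 fold change −0.75 ± 0.19, adjusted P = 0.037). Tagln was at 46.8, 30.8 and 40.1 CPM in controls and at 21.6, 30.5 and 23.7 CPM in CUG960 ventricles (−0.63 ± 0.17, adjusted P = 0.043). The CUG960 library V120, at 30.5 CPM, nearly met the control V333, at 30.8 CPM. Of its 1988 exonic bases, Tagln shares 108 with Pcsk7 on the opposite strand, which was at 21.2 to 29 CPM in all libraries, and 1241 with the antisense gene Gm48529, which has no row in the count table. Mylk shares 548 bases with E130310I04Rik and 224 with Gm21691, also without rows, and Smtn shares 714 with Gm11946, at no more than 0.167 CPM, and 39 with Gm11947, at 0 counts. The libraries were made with a stranded protocol, but whether the counting used strand is not given in the sources used here. Without it, reads of a gene and its antisense partner cannot be told apart.

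Myocd went the other way. It was at 23, 22 and 32.5 CPM in control ventricles and at 42.6, 38.8 and 37 CPM in CUG960 ventricles, without overlap, and rose 1.53-fold (log2 fold change 0.61 ± 0.14, adjusted P = 0.028). Its mean of 39.5 ± 2.85 CPM in CUG960 ventricles lay between the control ventricles, at 25.8 ± 5.81 CPM, and the control atria, at 44.7 ± 4.4 CPM. Synpo2 was also separated, at 145, 152 and 161 CPM in controls and 163, 168 and 165 CPM in CUG960 ventricles, but the change was 0.11 ± 0.07 (adjusted P = 0.35).

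Smtn had the smallest adjusted P value of the 10 in ventricles, 0.0091. It was at 154, 156 and 134 CPM in controls and at 99.5, 114 and 96.2 CPM in CUG960 ventricles, without overlap. The 1.43-fold lower level was under the fold change limit (log2 fold change −0.52 ± 0.09). Leaving out any 1 library kept its adjusted P at or under 0.044.

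Acta2, Cnn1 and Actg2 did not pass in ventricles. Acta2 was at 141, 110 and 110 CPM in controls and at 120, 202 and 104 CPM in CUG960 ventricles, with V120 alone high (0.24 ± 0.22, adjusted P = 0.53). Cnn1, at 1.6 to 3.43 CPM in controls and 2.04 to 2.65 CPM in CUG960 ventricles, changed by −0.15 ± 0.26 (adjusted P = 0.77). Actg2, at 0.655 to 1.07 CPM and 0.418 to 0.768 CPM, changed by −0.65 ± 0.30 (adjusted P = 0.21).

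The ventricular calls held their direction but not their side of the threshold when libraries were left out. Of the 5 calls, none was left without V123 or without V327. Mylk was left without V119, Tagln without V120, Myocd without V334, and Myh11, Mylk, Lmod1 and Tagln without V333. Smtn, under the fold limit with all mice, passed the threshold without V120 (−0.60, adjusted P = 0.013) and without V334 (−0.59, adjusted P = 0.008). Without V123, whose ventricles held the most Myl7, the remaining groups still differed in Myl7, Myl4 and Sln, all lower in V119 and V120 than in controls. The log2 fold changes were then −0.61 for Myh11 (adjusted P = 0.11), −0.67 for Mylk (0.065), −0.65 for Lmod1 (0.11), −0.59 for Tagln (0.11) and 0.65 for Myocd (0.052). With all 12 libraries in 1 fit, Tagln (adjusted P = 0.16), Myh11 (0.07) and Lmod1 (0.053) did not pass, and Mylk and Myocd did.

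**Figure D2:**
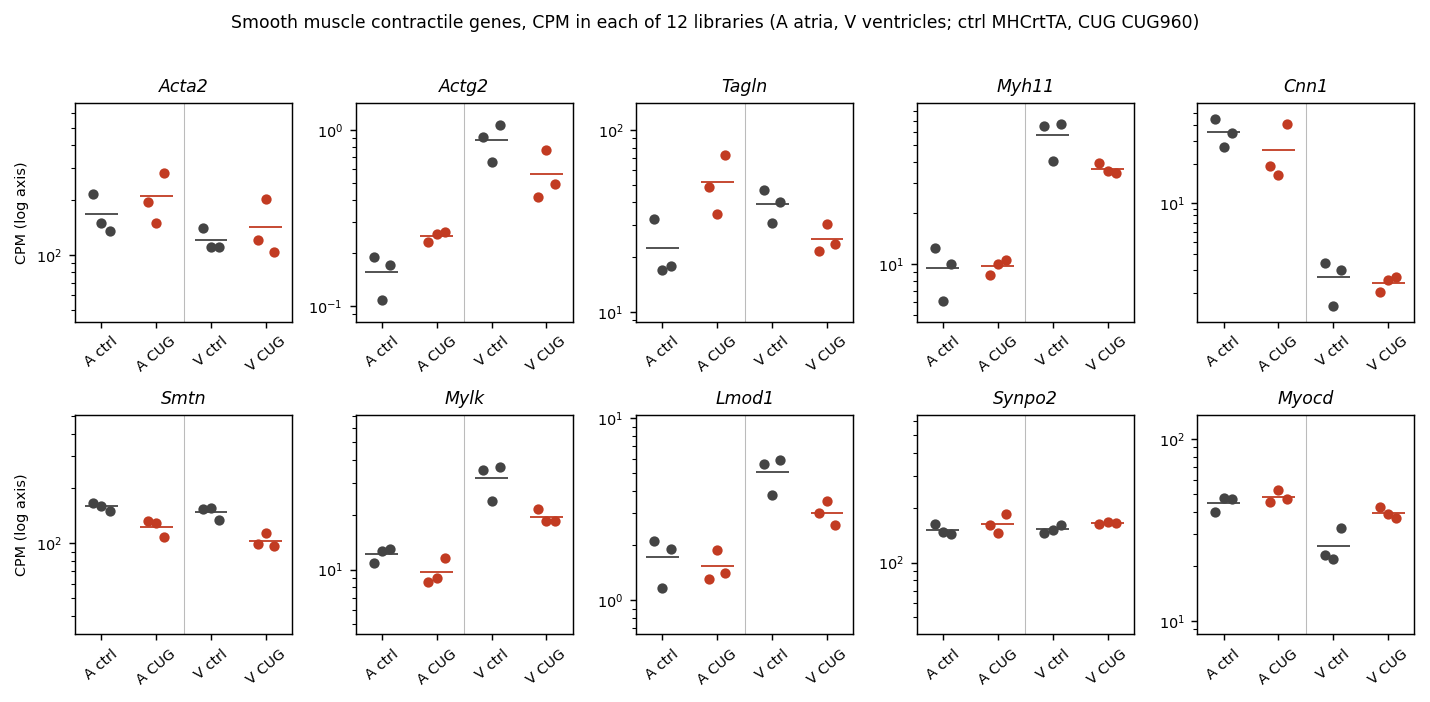
CPM of the 10 genes (y axis, log scale) in each of the 12 libraries, by chamber and genotype; points are libraries and lines are group means of 3. In ventricles Myh11, Mylk, Lmod1, Tagln and Smtn lie lower in CUG960 than in controls and Myocd lies higher, while in atria Tagln lies higher.

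**Figure D3:**
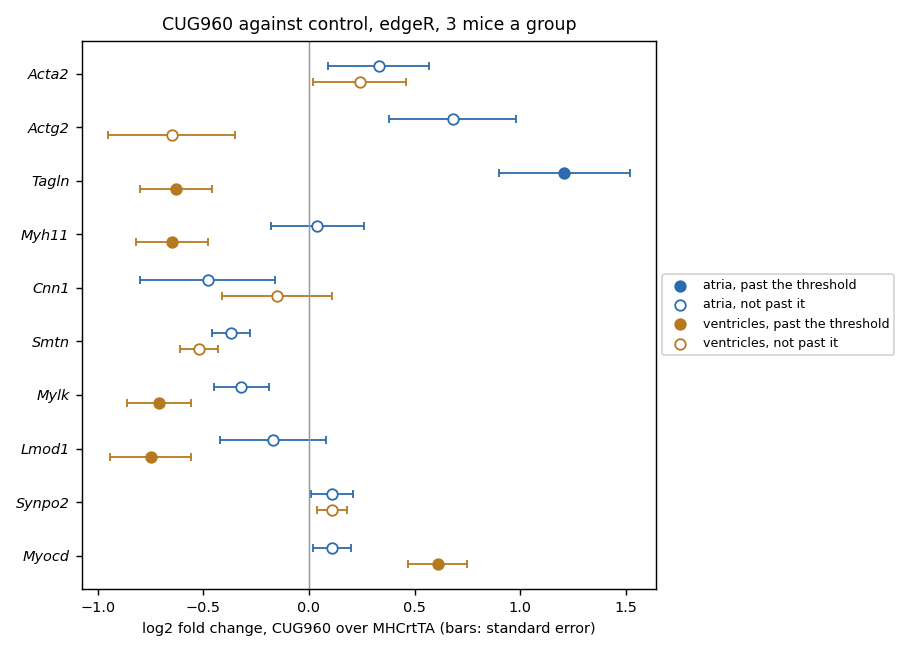
Log2 fold change of CUG960 over MHCrtTA (x axis) with standard errors, for the 10 genes in atria and ventricles; filled points passed the threshold. Tagln is at 1.21 in atria and at −0.63 in ventricles.

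To compare the chambers directly, the difference between the atrial and the ventricular change was tested in 1 fit of the 12 libraries (the interaction), with an adjusted P under 0.05 as the only limit. Tagln was the only member to pass. Its change in atria exceeded that in ventricles by 1.85 ± 0.40 on the log2 scale (adjusted P = 0.045), with all CUG960 atria higher and all CUG960 ventricles lower than their controls. Of 18327 genes, 1.38% passed, and 2253 had an unadjusted P under 0.05. The call of Tagln was lost without V119, V123, V333 or V334 (adjusted P = 0.17, 0.16, 0.13 and 0.16).

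For the other members the difference between the chambers was not established. It was 0.69 ± 0.32 for Myh11 (adjusted P = 0.4), 1.33 ± 0.43 for Actg2 (0.2), 0.58 ± 0.34 for Lmod1 (0.55), 0.39 ± 0.22 for Mylk (0.54) and −0.50 ± 0.19 for Myocd (0.28). With the mouse as a replicate block, pairing the chambers of each animal, Myh11 also passed (0.71, adjusted P = 0.0498) and Tagln stayed (1.84, adjusted P = 0.024).

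Markers of the vessel wall were read beside the contractile genes. Of 12 pericyte and mural cell markers outside the 10 genes, all 12 had a log2 fold change below 0 in atria and in ventricles, with medians of −0.40 and −0.33. An adjusted P under 0.05 was reached by 6 in each chamber, where the share of all genes that reached it was 6.62% downward and 7.95% upward in atria and 4.2% and 5.73% in ventricles, and 1 in each passed the threshold: Mcam in atria (−0.72 ± 0.10, adjusted P = 0.0036) and Vtn in ventricles (−0.69 ± 0.09, adjusted P = 0.0018). Rgs5, a regulator of G protein signaling made by pericytes and the most abundant of them in ventricles, was at 467, 497 and 502 CPM in control ventricles and at 363, 310 and 375 CPM in CUG960 ventricles, without overlap. It changed by −0.48 ± 0.09 (adjusted P = 0.012), 1.5-fold not being reached. The summed level of the mural markers was 1120, 1089 and 1183 CPM in control ventricles and 919, 774 and 871 CPM in CUG960 ventricles. In atria it was 351, 404 and 385 CPM against 261, 275 and 307 CPM. None of the 12 was at 0 in any library. Without V123, all 12 stayed below 0 in ventricles, with a median of −0.33, 4 had an adjusted P under 0.05 and Vtn passed. V333 was the lowest control ventricle for Myh11, Mylk, Lmod1 and Tagln, at 70.4%, 74.6%, 74.2% and 78.5% of the control mean. Its mural marker sum, 1089 CPM, was slightly below those of V327 and V334, at 1120 and 1183 CPM. Single markers in V333 were at 102% of the control mean for Rgs5, 103% for Kcnj8, 108% for Vtn and 92.4% for Pdgfrb. A relation between the contractile genes and the mural markers across mice was not tested.

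The 12 endothelial markers had log2 fold changes below 0 in both chambers, with medians of −0.40 in atria and −0.42 in ventricles. An adjusted P under 0.05 was reached by 5 in atria and 7 in ventricles, beside 6.62% and 4.2% of all genes tested downward. The threshold was passed by 2 in each chamber, beside 2.12% and 1.76% of all genes tested downward. Past the threshold were Pecam1 (−0.71 ± 0.10) and Tek (−0.62 ± 0.11) in atria, and Eng (−0.60 ± 0.07) and Cldn5 (−0.62 ± 0.12) in ventricles, which encode an adhesion molecule, the angiopoietin receptor, a TGF-β coreceptor and a tight junction protein. Cldn5 did not pass without V119, V120 or V333 (adjusted P = 0.057, 0.057 and 0.029, the last with a log2 fold change of −0.47), and Tek and Eng were under the fold limit without each of 3 mice, at −0.55 to −0.57 and −0.57 to −0.58. Without V123, 11 of the 12 were below 0 in ventricles, with a median of −0.46, and Eng and Cldn5 passed. Their summed level was 1284, 1131 and 1220 CPM in control ventricles and 890, 889 and 933 CPM in CUG960 ventricles. In atria it was 1367, 1576 and 1225 CPM against 1030, 1164 and 1047 CPM. None was at 0. Eng was the most abundant in every atrial library and Kdr, a VEGF receptor, or Cdh5, VE-cadherin, in every ventricular one. The part of vessel cell content in the lower levels of Myh11, Mylk, Lmod1, Tagln and Smtn was not tested. In the atria, where the medians of both lists were also below 0, the log2 fold changes of these genes were 0.04 for Myh11, −0.32 for Mylk, −0.17 for Lmod1, 1.21 for Tagln and −0.37 for Smtn (adjusted P = 0.94, 0.14, 0.68, 0.036 and 0.024).

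**Figure D4:**
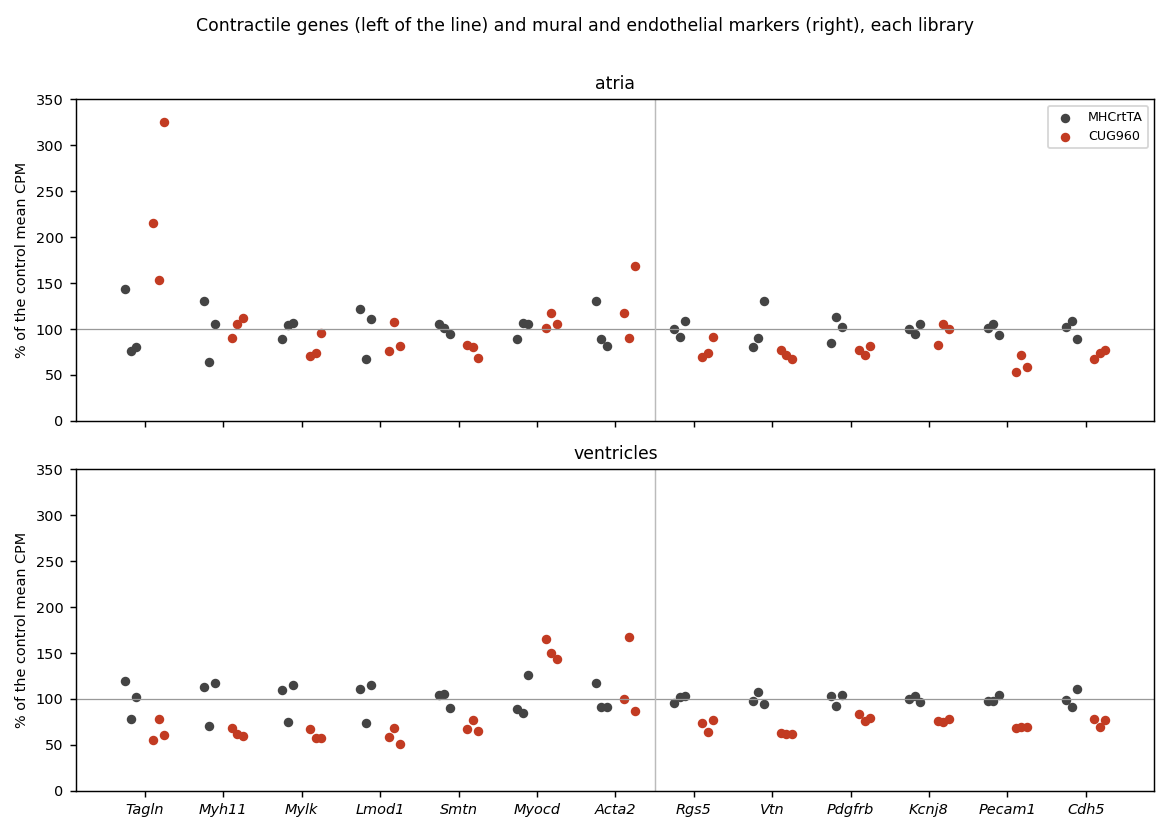
CPM of 7 contractile genes and of 6 mural and endothelial markers in each library, as a percent of the control mean of the same chamber (y axis; grey MHCrtTA, red CUG960). In CUG960 ventricles Tagln, Myh11, Mylk, Lmod1, Smtn and all 6 markers lie below 100% and Myocd above it; in CUG960 atria Smtn, Mylk and the markers other than Kcnj8 (82.9% to 105%) lie below 100%, Myh11, Lmod1 and Acta2 lie on both sides, and Tagln lies above, up to 326%.

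Activated fibroblasts also make α smooth muscle actin. Of 12 markers of these cells, 5 fell in atria past the threshold, where 2.12% of all genes tested fell, and none did in ventricles, where 1.76% fell. In atria 9 of the 12 had a log2 fold change below 0 and 3 above it, and in ventricles 5 were below and 7 above. The medians were −0.49 and 0.02, and for none of the 12 did the change differ between the chambers in edgeR (unadjusted P under 0.05 for 3, and DESeq2 called 2). Postn, which encodes the matrix protein periostin, was at 77.3 ± 4.24 CPM in control atria and 46.5 ± 5.62 CPM in CUG960 atria (−0.73 ± 0.10, adjusted P = 0.0026), and fibronectin, Fn1, the most abundant in atria, changed by −1.09 ± 0.25 (adjusted P = 0.025). Lox (−0.81 ± 0.19), Meox1 (−0.65 ± 0.13) and Fap (−0.71 ± 0.18, named after its value was seen) fell as well. Of these, Postn kept its call when any 1 mouse was left out. Fn1 lost it without V119, V120 or V123 (adjusted P = 0.072, 0.094 and 0.066) and was at −0.71 without V334, Lox lost it without V119, V333 or V334 (0.082, 0.085 and 0.062), Meox1 without V119, V333 or V123 (0.065, 0.057 and, under the fold limit, 0.038) and Fap without any mouse but V123 (0.064 to 0.12). In ventricles 4 of the 12 had an unadjusted P under 0.05 in edgeR, and DESeq2 called 1. Their summed level was 230, 286 and 388 CPM in control atria and 183, 153 and 164 CPM in CUG960 atria, while Acta2 in the same atria did not pass. No marker of resident fibroblasts passed the threshold in either chamber by edgeR or DESeq2 (unadjusted P under 0.05 in edgeR for 8 in atria and 4 in ventricles). In atria all 12 were below 0 and 3 had an adjusted P under 0.05, beside 6.62% of all genes tested downward. In ventricles 6 were below 0 and 1 reached that limit, beside 4.2% of all genes tested downward. The medians of these markers were −0.29 in atria and −0.00 in ventricles. Gsn, the most abundant, was at 5500 ± 534 and 4825 ± 494 CPM in control and CUG960 atria.

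The rest of the smooth muscle apparatus was read from 4 further lists, beside the 5.49% of all genes tested that passed in atria and the 4.75% in ventricles. Among 21 relatives of the 10 genes in other muscle and nonmuscle cells, of which 19 were tested in atria and 20 in ventricles, Mylk4 rose in both chambers. This relative of Mylk was at 121, 101 and 103 CPM in control atria and between 275 and 358 CPM in the 3 CUG960 atria (1.58 ± 0.11, adjusted P = 0.00017). In ventricles it was at 198, 196 and 216 CPM and at 410, 366 and 414 CPM (0.97 ± 0.08, adjusted P = 0.0002). Mylk and Mylk4 thus moved in opposite directions in ventricles. Tagln2, the nonmuscle relative of Tagln, fell in atria from 78.1 ± 4.57 to 51.1 ± 2.82 CPM (−0.61 ± 0.07, adjusted P = 0.0015), where Tagln rose, and was lower in ventricles by less than the fold limit (−0.40 ± 0.07, adjusted P = 0.0083). Without V123 or V334 the atrial change of Tagln2 was under the fold limit, at −0.58. No other relative passed, and the medians of the list were −0.25 and −0.09.

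Of 24 genes that switch smooth muscle myosin on and off, 1 passed in atria and none in ventricles by edgeR, where 8 had an unadjusted P under 0.05 and DESeq2 called 1. Mrvi1, a substrate of the cGMP-dependent kinase that restrains calcium release, rose in atria, from 110, 89.5 and 77.5 CPM to 175, 165 and 198 CPM (0.96 ± 0.13, adjusted P = 0.0028). In ventricles it changed by −0.23 ± 0.16 (adjusted P = 0.43), and the chambers differed by 1.19 ± 0.23 (adjusted P = 0.027), which was lost without any mouse but V333 (adjusted P = 0.052 to 0.11). Myl9, the regulatory light chain that Mylk phosphorylates, changed by −0.12 ± 0.20 in atria and −0.17 ± 0.12 in ventricles (adjusted P = 0.72 and 0.42).

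Of 25 other thin filament, dense body and adhesion genes, 2 fell in atria, and 1 fell and 1 rose in ventricles. Pdlim7, a LIM protein of actin filaments, was at 35.7, 43.9 and 41.1 CPM in control atria and at 13.3, 13.1 and 12.9 CPM in CUG960 atria (−1.62 ± 0.08, adjusted P = 3.8e-05). In ventricles it was at 41.1, 40.5 and 35.5 CPM and at 11.7, 15.3 and 13 CPM (−1.55 ± 0.11, adjusted P = 8.7e-05). Pdlim7 therefore fell to about the same level in both chambers. The paper lists Pdlim7, in both chambers, among genes whose splicing change introduces a premature stop codon. It attributes the altered expression of those genes to nonsense-mediated decay, which was not tested here. Tln1, talin 1, which ties integrins to actin, fell in atria from 224 ± 7.02 to 107 ± 0.386 CPM (−1.06 ± 0.05, adjusted P = 3.7e-05) and was 0.51 lower on the log2 scale in ventricles, under the fold limit; the chambers differed by −0.55 ± 0.10 (adjusted P = 0.02), which was lost without any mouse but V334 (adjusted P = 0.054 to 0.11). Pdlim3, a LIM protein of α-actinin, rose in ventricles from 14.6 ± 1.02 to 24.4 ± 2.72 CPM (0.74 ± 0.11, adjusted P = 0.0034). The list had medians of −0.23 in atria and −0.15 in ventricles. Without the fold limit, 3 of the 25 were higher and 9 lower in atria at an adjusted P under 0.05, and 2 higher and 5 lower in ventricles, where 7.95% and 6.62% of all genes tested were in atria and 5.73% and 4.2% in ventricles.

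Of 16 regulators that act with SRF and myocardin, 1 passed in atria and none in ventricles by edgeR or DESeq2, where 14 were tested and 3 had an unadjusted P under 0.05 in edgeR. Fhl2, a LIM cofactor of SRF that is made by cardiomyocytes, rose in atria from 72.5, 67.5 and 73.2 CPM to 152, 142 and 159 CPM (1.09 ± 0.07, adjusted P = 7.6e-05) and changed by 0.15 ± 0.10 in ventricles. Srf itself changed by −0.22 ± 0.08 in atria and −0.05 ± 0.09 in ventricles (adjusted P = 0.11 and 0.76). The myocardin-related factor Mkl1 changed by −0.32 ± 0.11 and −0.13 ± 0.11 (adjusted P = 0.1 and 0.51). Elk1, also of this list, was higher in CUG960 ventricles, at 21 ± 1.21 CPM against 15.1 ± 0.762 CPM, without overlap. Without the fold limit, 1 gene of the list was higher and 0 lower in ventricles at an adjusted P under 0.05. The shares of all genes tested were 5.73% and 4.2%. Myocd thus passed the threshold in ventricles where none of the listed regulators did.

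The genes whose profiles over the 12 libraries were most like each member were sought among 13103 genes whose CPM averaged 1 or more over these libraries, by the root mean square difference of centered log2 CPM. The measure shares libraries and depth between genes and is given as a description. The closest to Myh11 were Susd5 (0.196) and Olfr558 (0.226), and those to Lmod1 were Sema3g (0.243) and Abcb1a (0.259). The closest to Mylk were 9930111J21Rik2 (0.151) and Ppip5k1 (0.162), and those to Actg2 were Plbd1 (0.295) and Ccdc3 (0.330). All 8 were higher in control ventricles than in control atria. Smtn was closest to Mvp (0.102) and Syngr2 (0.111), Myocd to Ddx11 (0.137) and Dennd4a (0.137), and Synpo2 to Gtf2i (0.059) and Trmt6 (0.063). Acta2 was closest to Gm572 (0.246) and Rpgrip1l (0.259). Tagln, at 0.298 from Slc12a5 and 0.398 from 5930430L01Rik, and Cnn1, at 0.386 from Fgf14 and 0.413 from Adamts19, had the most distant neighbors. Among the members, Mylk and Lmod1 were nearest to each other (0.302), and Cnn1 was the farthest from any other (1.578 from Acta2).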

How the data were processed

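Poly(A) RNA of atria and ventricles was sequenced from 3 CUG960 and 3 MHCrtTA mice, 1 library each (n = 3 a group). The authors aligned reads to GRCm38 (mm10), estimated expected counts per gene with RSEM 1.3.1 and deposited them unscaled in a single table of whole numbers. They are gene totals, so isoforms were not resolved.

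Counts were tested with edgeR 4.0.16 in R 4.3.3 (filterByExpr, TMM, glmQLFit and glmQLFTest, Benjamini-Hochberg over all genes tested). Calls needed adjusted P values under 0.05 and, except in the interaction, a change of at least 1.5-fold. Alternatives were DESeq2 1.42.0, other scalings and filters, all 12 libraries in 1 fit, other fold limits, each mouse left out, and the mouse as a block. Exact permutation of 3 against 3 cannot go below P = 0.1 and was not used. Same-mouse libraries of the chambers deviated together at r of 0.047 to 0.284 (different mice, −0.343 to 0.13). The ranges overlapped, with V119 at 0.047 with itself and its atria at 0.123 with the ventricles of V120. Deviations were taken from each group's mean of 3, so the different-mouse values depend on the same-mouse ones and are no independent reference. Since both chambers come from 1 mouse, the number pairs them.

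Lengths and coordinates came from GENCODE M21 (GRCm38) and promoters from RefSeq. The members and lists (4 of the apparatus, 9 of cell markers) were chosen with earlier results of these data known. The text names all members, list genes past the threshold (up to 6 or 4 a list), each marker list's most abundant gene and the 2 most alike genes. Genes named outside this rule include Fap, Synpo2l, Gja1, Srf, Mkl1, Elk1, Myl9, Myl7, Myl4, Sln, Kdr, Cdh5, Kcnj8 and Pdgfrb. Depth was 105 to 174 counts to 1 CPM.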

Additional observations from a re-analysis of the deposited data

Results flagged for a closer look

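In 8 genes of the members and lists, the change with CUG960 differed between atria and ventricles by the test of the interaction in edgeR (adjusted P under 0.05). Among all 18327 genes tested, 1.38% passed this limit. Tagln, transgelin, differed by 1.85 on the log2 scale (adjusted P = 0.045), up in atria and down in ventricles. Mrvi1, the calcium release regulator, differed by 1.19 (0.027), Fhl2, the LIM cofactor, by 0.94 (0.0023), and Bmp10, an atrial growth factor, by 4.10 (0.0021), with its ventricular levels at 3.75 CPM or less, where the libraries also differed in the atrial transcript Myl7. Tln1, talin 1, differed by −0.55 (0.02), with the larger decrease in atria. Synpo2l, the striated muscle relative of Synpo2, differed by −0.70 (0.039), lower in all CUG960 atria and higher in all CUG960 ventricles. Gja1, connexin 43, differed by −0.64 (0.008) in the same way, and Nppa, the atrial natriuretic peptide, by −1.72 (0.049). With any 1 mouse omitted, Fhl2 and Bmp10 kept an adjusted P under 0.05 throughout. Gja1 lost it without V327 (0.061), Tagln without 4 mice (0.13 to 0.17), Nppa without 4 (0.15 to 0.24) and, with all mice, under RLE scaling (0.0503), and Mrvi1 (0.052 to 0.11), Tln1 (0.054 to 0.11) and Synpo2l (0.077 to 0.16) without 5 mice each.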

How the results depend on the processing

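Among the members, Acta2, Myh11, Cnn1 and Synpo2 changed sign in some alternatives, none of them past the threshold where they did. Leaving out 1 mouse at a time gave −0.20 to 0.27 for Myh11 in atria, −0.10 to 0.42 for Acta2 and −0.41 to 0.07 for Cnn1 in ventricles, −0.37 to 0.62 for Acta2 and −0.10 to 0.10 for Synpo2 in the interaction, and −0.12 to 0.06 for Synpo2 between the chambers. Synpo2 was at 0.01 with DESeq2 and with RLE scaling in the interaction, and at 0.01 with upper quartile scaling between the chambers. When a log2 change of 1.5 or more was required, 216 genes and 0 members passed in atria, 199 and 0 in ventricles, and 2233 and 4 between the chambers. Without a fold limit, 2573 genes and 2 members passed in atria, 1680 genes in ventricles and 9726 between the chambers. With all 12 libraries in 1 fit, 2 members passed in ventricles. In the interaction, DESeq2 called 652 genes, and the replicate block called 2 members. The block changed no other call of a member. Leaving out 1 mouse, with fewer samples in each fit, gave 0 to 1 members in atria, 0 to 4 in ventricles and 6 to 7 between the chambers. In the interaction it gave 0 to 1 members, where 74 to 131 genes passed. Bmp10 could not be tested in ventricles or in the interaction with a minimum of 10 counts in every library. Actg2 rested on 19 to 120 counts in each library.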

Other observations

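Of 12 cardiomyocyte markers of both chambers, Ckm, muscle creatine kinase, fell in atria (log2 fold change −0.60 ± 0.08, adjusted P = 0.0029 in edgeR), and Ryr2, the calcium release channel, fell in ventricles (−0.67 ± 0.13, adjusted P = 0.015). Ckm was under the fold limit without V120 or V327 (−0.53 and −0.58), and Ryr2 did not pass without V120, V327 or V334 (adjusted P = 0.064, 0.058 and, under the fold limit, 0.039). An adjusted P under 0.05 was reached by 2 upward and 2 downward in atria and by 1 in each direction in ventricles, where 7.95% and 6.62% of all genes tested did so in atria and 5.73% and 4.2% in ventricles. The medians were −0.07 and 0.05. Myh6, the most abundant, was at 25506 ± 380 CPM in control atria and 29797 ± 550 CPM in CUG960 atria, a change under the fold limit (0.22 ± 0.06, adjusted P = 0.039).

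Of 8 atrial markers, Nppa rose in ventricles from 62.6 ± 19.5 to 154 ± 68.9 CPM (adjusted P = 0.031). Nppa did not pass without V120, V123, V327 or V333 (adjusted P = 0.1, 0.063, 0.1 and 0.09), with a log2 fold change of 0.93 without V120 and 1.31 without V123. Bmp10 fell in ventricles, from 2.43, 2.39 and 3.75 CPM to 0.0343, 0.275 and 0.208 CPM (−4.06 ± 0.50, adjusted P = 0.0016). Control ventricles held more Myl7 (4.98 to 19.3 CPM) than those of V119 and V120 (0.192 and 0.304 CPM) and less than those of V123 (55.9 CPM), and the part of atrial tissue in the ventricular levels of Bmp10 and Nppa was not tested. In control atria Bmp10 was at 1554 ± 492 CPM. Without V123, 4 of the 8 fell in ventricles, Myl7, Myl4, Sln and Bmp10, the last with a log2 fold change of −4.21 (adjusted P = 0.0057). Of 8 ventricular markers, Fhl2 rose and Hey2, a Notch target, fell in atria (−0.67 ± 0.19, adjusted P = 0.049). Hey2 did not pass without any mouse but V123 (adjusted P = 0.098 to 0.12) or with RLE scaling (0.051). Myl2, the most abundant in ventricles, changed there by 0.04 ± 0.11. Of 8 epicardial and mesothelial markers, Aldh1a2, which makes retinoic acid, fell in ventricles (−0.73 ± 0.16, adjusted P = 0.02) but did not pass without V120, V123, V327 or V333 (0.053, 0.061, 0.069 and 0.058). Upk3b, the most abundant of them in atria, was at 140 ± 7.15 CPM in control atria and 1.05 ± 0.487 CPM in control ventricles. Of 8 lung markers, 4 were tested in atria and 1 in ventricles, and none passed by edgeR or DESeq2 in either (unadjusted P under 0.05 for 0). Epcam was at 1.08 ± 0.141 CPM in control atria.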
